A study of Rattus norvegicus with 6 samples.

Results

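The peroxisome proliferator-activated receptors (PPAR), the retinoid X receptors (RXR), the estrogen-related receptors (ERR) and the PGC-1 coactivators were followed in neonatal rat ventricular myocytes after knockdown of uc.323. The set held 10 genes, Ppara, Ppard, Pparg, Rxra, Rxrb, Rxrg, Esrra, Esrrg, Ppargc1a and Ppargc1b. Every non-control probe whose RefSeq accession belonged to one of these genes was taken, which gave 11 probes, of 18005 named probes for 15168 genes and of 30367 probes in all. Ppard had 2 probes and each other gene had 1. Probes were matched by gene name without use of measured values, while the genes themselves were chosen with earlier results of these data known.

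The tested myocytes received si-uc.323, an siRNA against uc.323, a transcript from an ultraconserved element, and the control myocytes received si-scramble, an siRNA of scrambled sequence. There were 3 samples in each group, labelled as independent experiments, and each was hybridised to a one-colour Agilent rat array. All cells came from the ventricles of Sprague-Dawley rats 1 to 2 days old, labelled as male, and were preplated and given 5-BrdU, which limit non-myocytes. Both groups were cultured for 36 h, exposed to 50 nmol/L siRNA for 3 h without serum, kept serum-free for another 21 h and harvested 24 h after the start of transfection. A single siRNA sequence was used against uc.323, so the comparison is between these siRNAs. It is shown because it defines the treatment, as the labels give it without its dTdT overhang.
siRNA against uc.323: gguaaguaauuucagcaau

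PPARs are fatty-acid-activated nuclear receptors that bind DNA as heterodimers with an RXR and, in heart muscle, drive genes of fatty acid uptake and oxidation. ERRs are orphan nuclear receptors that bind genes of oxidative phosphorylation and the citrate cycle. PGC-1 alpha and PGC-1 beta, encoded by Ppargc1a and Ppargc1b, bind no DNA themselves and coactivate both kinds of receptor.

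Levels are given as log2 of the processed intensity minus the array's 75th percentile, so a value of 0 is that percentile. They can be compared between arrays for the same probe, not between probes. The 75th percentile lay between 1205 and 1775 intensity units on the si-uc.323 arrays and between 1182 and 1381 on the si-scramble arrays. The share of probes well above background was 72.4% to 86.5% on the si-uc.323 arrays and 71.8% to 73.9% on the si-scramble arrays. Array-to-array correlations were 0.983 to 0.986 within si-uc.323, 0.990 to 0.992 within si-scramble and 0.981 to 0.988 between the groups. Replicate 1 of si-uc.323 correlated at 0.986 to 0.988 with the si-scramble arrays, and at 0.983 and 0.985 with si-uc.323 replicates 2 and 3. Replicate 2 of si-uc.323 correlated at 0.988 with si-scramble replicate 2. By the scan identifier in the headers, si-uc.323 replicate 1 shared a scan with all 3 si-scramble arrays, while si-uc.323 replicates 2 and 3 shared another. All 10 cardiomyocyte markers were well above background, with a summed level of 257 to 277 times the 75th percentile in si-uc.323 and 290 to 301 times in si-scramble. Their mean log2 level was 3.63 to 3.73 in si-uc.323 and 3.75 to 3.81 in si-scramble, with 6 fold changes positive and 4 negative. Among these markers 1 changed, the cardiac actin gene Actc1, with a log2 fold change of -0.63 (limma adjusted p = 0.0313). The level of uc.323 itself was not analysed here. In such bulk samples, fewer cells of a type and less RNA per cell cannot be told apart.

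Rxrg was the member whose level differed beyond the test's threshold, and it was lower after si-uc.323. All 11 probes were well above background on all 6 arrays and all were tested. With limma and an adjusted p under 0.05 over 21994 tested probes, 1 of the 11 was called lower and 0 higher, while 5 had an unadjusted p under 0.05, as did 28.3% of all tested probes. The background was 2.41% of tested probes called lower (529 probes) and 3.48% called higher (766 probes). That split depends on scaling: quantile normalization gave 966 lower and 862 higher, cyclic loess 1114 and 1048, normexp 677 and 612, the values of the deposited series table gave 962 and 865, and a median shift 836 and 516. The groups did not overlap for 4 probes that were lower (Rxrg, Esrra, Ppara and Ppargc1b) and 1 that was higher (Pparg). Among all tested probes 15.8% did not overlap and were lower, and 19.7% did not overlap and were higher. The median log2 fold change was -0.06 over the 11 probes and 0.06 over all tested probes, and with the median shift all tested probes had a median of -0.08.

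**Figure D1:**
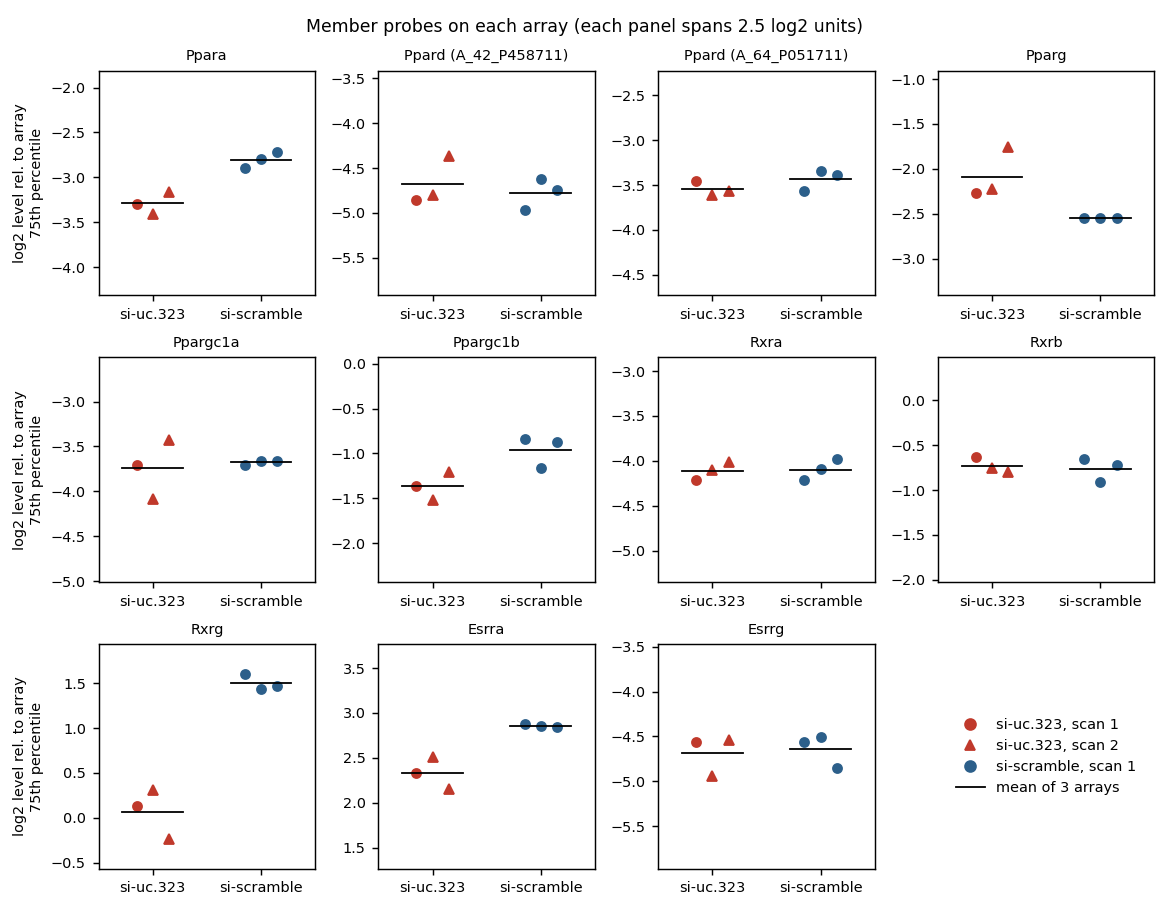
Level of each of the 11 member probes on each array, as log2 intensity relative to the array's 75th percentile, with si-uc.323 left of si-scramble; each point is 1 array. The si-uc.323 arrays lie between -0.24 and 0.31 for Rxrg and the si-scramble arrays between 1.43 and 1.60, the widest gap among these probes.

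The RXRs are the shared partners of the PPARs and of other nuclear receptors, and Rxrg encodes the isoform best known from skeletal muscle, heart and brain. Rxrg had levels of 0.13, 0.31 and -0.24 on the si-uc.323 arrays, against 1.60, 1.43 and 1.46 on the si-scramble arrays. The highest si-uc.323 array lay 1.12 log2 units below the lowest si-scramble array. The log2 fold change was -1.43 ± 0.16 (SE, n = 3 per group, 95% interval -1.80 to -1.06, limma adjusted p = 0.0169). On a linear scale the level in si-uc.323 was 37.1% of that in si-scramble, and the probe ranked 44 of 21994 by p. Within the shared scan, si-uc.323 replicate 1 against the 3 si-scramble arrays gave -1.36, a value without any measure of spread among si-uc.323 samples. The other scan held no si-scramble array, so with the scan as a block the value is fixed to the same -1.36. It rests on si-uc.323 replicate 1, and the adjusted p was 0.139, so the call was lost. It was also lost with no background filter (adjusted p = 0.0904) and without si-scramble replicate 1, 2 or 3 (0.0971, 0.07 and 0.115).

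Rxra, the widely expressed isoform and the main one in cardiac muscle, had levels of -4.21, -4.10 and -4.02 in si-uc.323, against -4.21, -4.10 and -3.98 in si-scramble. These ranges overlapped almost fully, and the log2 fold change was -0.01 ± 0.12 (95% interval -0.29 to 0.26, limma adjusted p = 0.952). Rxrb, the other widely expressed isoform, had levels of -0.63, -0.75 and -0.80 in si-uc.323, against -0.65, -0.91 and -0.72 in si-scramble. Its log2 fold change was 0.03 ± 0.12 (95% interval -0.25 to 0.31, limma adjusted p = 0.884). The intervals of both genes leave out a fall as large as that of Rxrg.

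Differences between relatives were compared directly for 8 pairs of genes by exact two-sided permutation of the arrays, where 3 against 3 cannot go below p = 0.1. The log2 fold change of Rxrg differed from that of Rxra by -1.41 ± 0.23 (SE, 95% interval -2.05 to -0.78, exact p = 0.1, adjusted over the 8 pairs 0.16). Against Rxrb the difference was -1.46 ± 0.15 (95% interval -1.88 to -1.04, exact p = 0.1, adjusted 0.16). Between Rxra and Rxrb it was -0.05 ± 0.16 (95% interval -0.48 to 0.39, exact p = 0.7). Each difference of Rxrg from a paralog thus reached the smallest p that the design allows and did not pass 0.05.

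**Figure D2:**
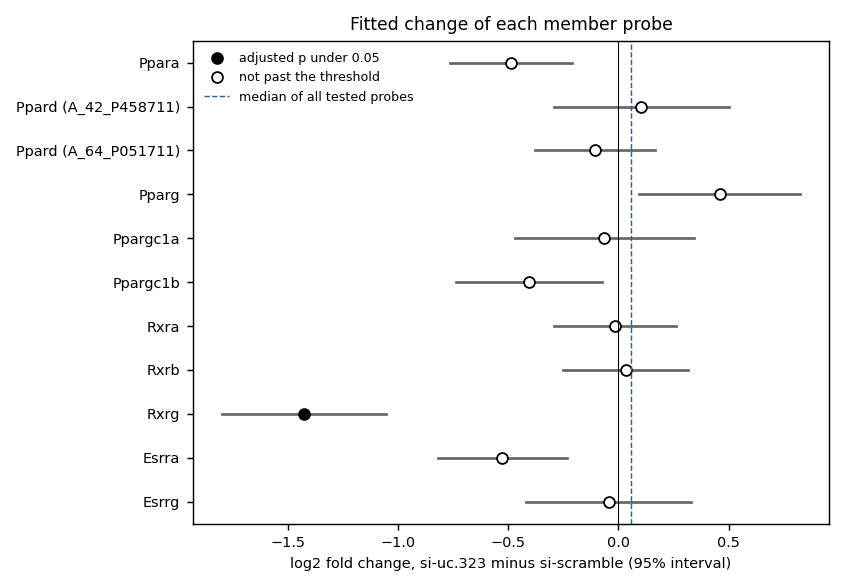
Log2 fold change, si-uc.323 minus si-scramble, of each member probe with its 95% interval from limma. Rxrg stands at -1.43, Esrra, Ppara, Ppargc1b and Pparg have intervals that leave out 0 without passing the adjusted threshold, and the other 6 probes have intervals that include 0.

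The start-site windows of the RXR genes are shown so that the gene with the called change can be read beside its paralogs. RefSeq windows of build GRCr8, from 250 bases before to 50 after the start, were matched for 9 of the 10 genes. Capitals mark GC boxes (GGGCGG on either strand) and E-boxes (CANNTG), which do not overlap in these windows.
Rxrg, chr13:82276237-82276536, plus strand: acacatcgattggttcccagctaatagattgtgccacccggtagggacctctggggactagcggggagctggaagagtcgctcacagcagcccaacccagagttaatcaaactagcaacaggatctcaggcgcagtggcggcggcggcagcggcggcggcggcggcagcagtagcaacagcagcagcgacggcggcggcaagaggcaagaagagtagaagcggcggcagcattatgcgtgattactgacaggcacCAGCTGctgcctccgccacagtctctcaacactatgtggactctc
Rxra, chr3:31387642-31387941, plus strand: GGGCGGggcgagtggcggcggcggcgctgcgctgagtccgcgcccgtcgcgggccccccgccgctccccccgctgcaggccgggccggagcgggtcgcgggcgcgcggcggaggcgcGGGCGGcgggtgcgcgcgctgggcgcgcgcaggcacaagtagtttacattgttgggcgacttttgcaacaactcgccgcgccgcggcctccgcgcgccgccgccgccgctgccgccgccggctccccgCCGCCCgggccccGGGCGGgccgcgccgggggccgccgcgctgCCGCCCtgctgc
Rxrb, chr20:4824610-4824909, minus strand: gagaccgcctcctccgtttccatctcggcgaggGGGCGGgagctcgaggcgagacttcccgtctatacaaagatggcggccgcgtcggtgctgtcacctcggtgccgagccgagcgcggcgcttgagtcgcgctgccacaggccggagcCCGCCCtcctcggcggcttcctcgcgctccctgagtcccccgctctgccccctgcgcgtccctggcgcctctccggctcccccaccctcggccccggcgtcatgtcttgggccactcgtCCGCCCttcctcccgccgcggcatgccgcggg

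The Rxrg window held 0 GC boxes and 1 E-box, CAGCTG, starting 6 bases into the transcribed part. The Rxra window held 5 GC boxes and the Rxrb window 3, and neither held an E-box. GC content was 60.7% for Rxrg, 84.7% for Rxra and 74% for Rxrb, with 21, 62 and 41 CpG dinucleotides, against medians of 51.7% and 7 over all 33469 windows. A GC box was found in 33.1% of all windows and an E-box in 72.1%. The nuclear receptor half-site AGGTCA, on either strand, was in 1 of the 13 member windows, one of Esrrg, and in 16.2% of all windows. The longer letters TCAAGGTCA, known as an ERR element, and a direct repeat of AGGTCA with any 1 base between, known as a PPAR element, both contain the half-site. They were in 0 of the 13 member windows, and in 0.433% and 0.0538% of all windows. TGACGTCA, the cAMP response element, was in the Ppargc1a window, starting at -181, and in 1.83% of all windows. A match of letters describes the window and not binding.

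The PPAR genes gave no called change, and their fold changes ran in different directions. Ppara, the receptor that drives fatty acid oxidation genes in heart, had levels of -3.30, -3.41 and -3.17 in si-uc.323, against -2.90, -2.80 and -2.72 in si-scramble. All 3 si-uc.323 arrays were below all 3 si-scramble arrays, by a gap of 0.27. The log2 fold change was -0.49 ± 0.12 (95% interval -0.76 to -0.21) with a limma adjusted p of 0.0566. It passed the threshold in 7 of 19 alternative settings, among them quantile normalization (-0.60, adjusted p = 0.0259) and the deposited series table (-0.60, 0.0257). Ppara did not pass with the scan as a block (-0.49, limma adjusted p = 0.286) or with no background filter (0.144). It also did not pass without si-scramble replicate 1, 2 or 3 (0.158, 0.174 and 0.238). Quantile normalization and the series table gave nearly the same value for every member probe, so they add little to each other.

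Pparg, best known for fat cell differentiation, had levels of -2.27, -2.23 and -1.76 in si-uc.323, against -2.55, -2.55 and -2.54 in si-scramble. The arrays did not overlap, with si-uc.323 above si-scramble and its replicate 3 highest. The log2 fold change was 0.46 ± 0.16 (95% interval 0.10 to 0.83) with a limma adjusted p of 0.112. It was 0.30 without si-uc.323 replicate 3 (adjusted p = 0.117) and 0.28 with the scan as a block (0.539). The scan 1 arrays alone give the same 0.28 by design. Of 7 fat cell markers on the array, 4 were tested and 0 were called, and Adipoq, Cidec and Lep were not well above background on all arrays of either group. The summed level of the tested fat cell markers was 0.745 to 1.63 times the 75th percentile in si-uc.323 and 0.894 to 0.953 times in si-scramble. One of them, Retn, the resistin gene, stood at -4.63, -1.05 and -0.96 in si-uc.323, against -4.38, -4.67 and -4.62 in si-scramble (limma adjusted p = 0.147). The part of fat cell RNA in the Pparg values was not tested.

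Ppard, the widely expressed PPAR, had 2 probes. The brighter one had levels of -3.45, -3.61 and -3.56 in si-uc.323, against -3.57, -3.34 and -3.39 in si-scramble, with a log2 fold change of -0.11 ± 0.12 (95% interval -0.38 to 0.16, limma adjusted p = 0.58). The other had levels of -4.85, -4.80 and -4.36 in si-uc.323, against -4.97, -4.62 and -4.75 in si-scramble, with a log2 fold change of 0.10 ± 0.17 (95% interval -0.29 to 0.50, adjusted p = 0.722). The probes differed in sign, and both intervals include 0. The direct comparison used only the brighter Ppard probe. By that comparison, Ppara minus Pparg was -0.95 ± 0.12 (95% interval -1.28 to -0.61). Ppara minus Ppard was -0.38 ± 0.09 (-0.62 to -0.14) and Ppard minus Pparg -0.57 ± 0.19 (-1.11 to -0.03). Each of these had an exact p of 0.1 and an adjusted value of 0.16. With normexp, Ppara minus Pparg was -0.72 and Ppara minus Ppard -0.27.

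Esrra encodes ERR alpha, which works with PGC-1 on mitochondrial genes. Esrra had levels of 2.33, 2.51 and 2.16 in si-uc.323, against 2.87, 2.86 and 2.85 in si-scramble. The arrays did not overlap, and the gap was 0.33. The log2 fold change was -0.53 ± 0.12 (95% interval -0.82 to -0.23) with a limma adjusted p of 0.0542, and 8 of 19 alternatives passed the threshold. The Esrra probe was spotted 10 times on each array, and the SD over its spots within an array was 0.03 to 0.10 log2 units, which measures spot noise and not the spread between samples. With the scan as a block the Esrra value was -0.53 with an adjusted p of 0.28. Esrrg, the isoform of heart and other oxidative tissues, had levels of -4.56, -4.94 and -4.54 in si-uc.323, against -4.56, -4.51 and -4.85 in si-scramble. Its groups overlapped, with a log2 fold change of -0.04 ± 0.16 (95% interval -0.42 to 0.33, adjusted p = 0.882). The difference between Esrra and Esrrg was -0.48 ± 0.25 (95% interval -1.18 to 0.21, exact p = 0.3).

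Of the coactivators, Ppargc1a had levels of -3.71, -4.09 and -3.43 in si-uc.323, against -3.71, -3.66 and -3.67 in si-scramble. The si-uc.323 arrays lay on both sides of the si-scramble arrays, and the log2 fold change was -0.06 ± 0.17 (95% interval -0.47 to 0.34, limma adjusted p = 0.838). Ppargc1b had levels of -1.36, -1.52 and -1.21 in si-uc.323, against -0.84, -1.16 and -0.87 in si-scramble. These groups were apart by only 0.05, and the log2 fold change was -0.41 ± 0.14 (95% interval -0.74 to -0.08, adjusted p = 0.117). The difference between Ppargc1a and Ppargc1b was 0.34 ± 0.15 (95% interval -0.08 to 0.77, exact p = 0.2).

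The genes whose pattern over the 6 arrays was nearest to that of Rxrg were found by the root mean square difference of centred log2 levels, over 11570 named genes with a median of 0.771. The nearest were Lrtm2 (0.0524), Gckr, the glucokinase regulator (0.0620), Smim5 (0.0685), Ptprr, a receptor tyrosine phosphatase (0.0694), and Myoc, the myocilin gene (0.1003). Their log2 fold changes lay between -1.53 and -1.30, a direction that the choice by likeness fixes.

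**Figure D3:**
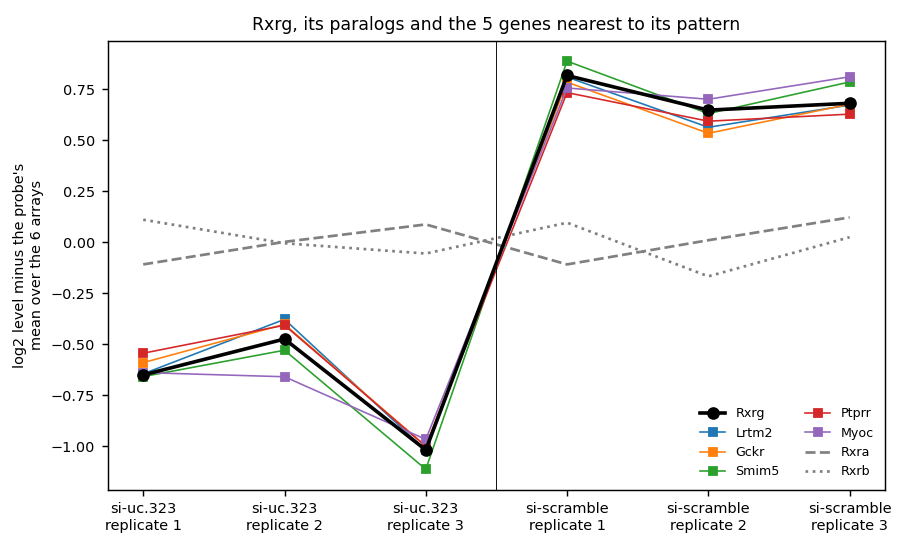
Centred log2 level on each array of Rxrg (black), of the 5 genes with the smallest root mean square difference from it, and of Rxra and Rxrb (grey), si-uc.323 left of si-scramble; lines only guide the eye. The 5 genes run with Rxrg, which is lowest on si-uc.323 replicate 3, while Rxra and Rxrb stay near 0.

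Among the 96 tested genes of 6 lists around the members, 11 were called, all in the lower direction. These calls fell to 0 with the scan block, with no background filter and without any 1 si-scramble replicate. They fell to 6 with the replicate block or without si-uc.323 replicate 3. Higher calls appeared in 2 alternatives, with 33 lower and 4 higher under array weights and 16 lower and 4 higher without si-uc.323 replicate 2. For named genes, each by its brightest probe, the background was 2.99% called lower and 3.31% called higher of 11580 tested, with a median log2 fold change of 0.02. A negative fold change was found for 5479 of these 11580 genes. Of 31 PPAR target genes 30 were tested, 4 fell and 0 rose, and 26 of the 30 had a negative fold change, with a median of -0.32. Ucp3, a mitochondrial uncoupling protein of muscle, had levels of -4.77, -4.42 and -4.02 in si-uc.323, against -2.83, -3.06 and -3.16 in si-scramble, and a log2 fold change of -1.38 ± 0.20 (limma adjusted p = 0.0222). Cpt1b, the muscle form of the enzyme that starts fatty acid import into mitochondria, had levels of 3.84, 3.76 and 3.46 in si-uc.323, against 4.59, 4.44 and 4.61 in si-scramble. Its log2 fold change was -0.86 ± 0.14 (adjusted p = 0.0263), and a dimmer probe of the same gene gave -0.26. Acsl1, which activates long-chain fatty acids, had a log2 fold change of -0.88 ± 0.15 (adjusted p = 0.0291). Fgf21, a secreted metabolic hormone, had one of -0.68 ± 0.11 (adjusted p = 0.0265).

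All 24 ERR and PGC-1 targets were tested, 4 fell and 0 rose, and 19 had a negative fold change, with a median of -0.18. This list holds Esrra itself, shares Ucp3 and Pdk4 with the PPAR targets and shares Perm1 with the coregulators. The other calls were Cox8b, a subunit of cytochrome c oxidase (-0.64 ± 0.10, limma adjusted p = 0.0258), Ndufa4, a respiratory chain protein (-0.47 ± 0.10, 0.0448), and Atp5mc1, a subunit of ATP synthase (-0.46 ± 0.10, 0.0484). Cox8b had levels of 2.27, 2.29 and 2.23 in si-uc.323, against 2.93, 2.88 and 2.91 in si-scramble, so the groups were well apart. Both lists were drawn up with earlier results of these data known.

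**Figure D4:**
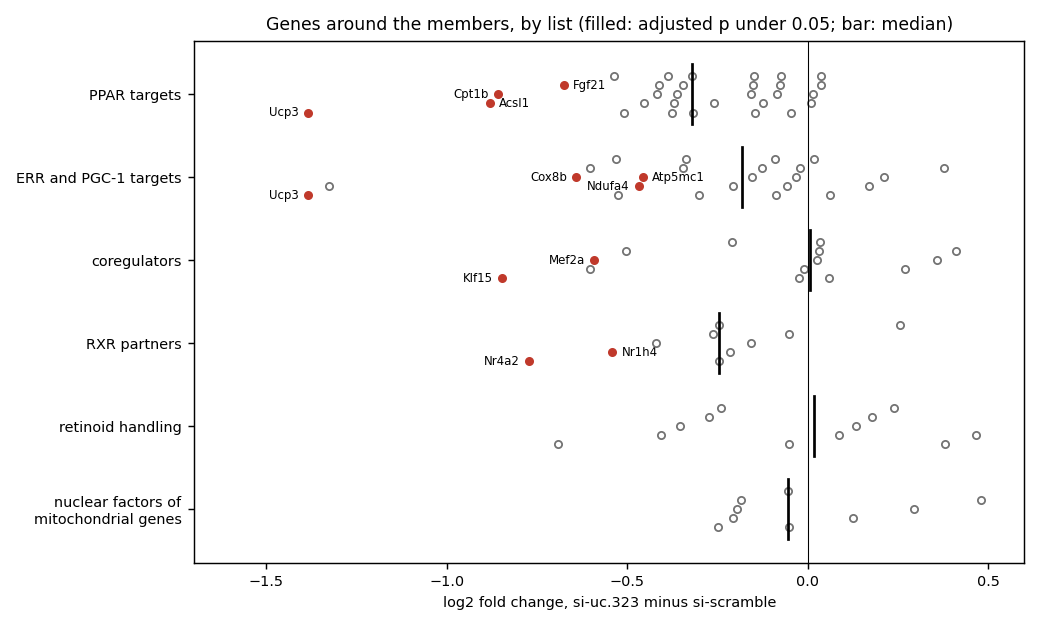
Log2 fold change, si-uc.323 minus si-scramble, of each tested gene (brightest probe) in 6 lists around the members; filled points have an adjusted p under 0.05 and black bars are list medians. The 11 called genes are all left of 0, and Ucp3 at -1.38, drawn in both target lists, is the lowest of them.

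Of 13 other RXR partners 10 were tested, 2 fell and 0 rose, with a median of -0.25. They were Nr4a2, an orphan receptor (-0.77 ± 0.13, limma adjusted p = 0.0279), and Nr1h4, the bile acid receptor (-0.54 ± 0.12, 0.0493). The other Nr4a2 probe gave -0.05 and the other Nr1h4 probe -0.68, so the probes of Nr4a2 disagreed in size. Of 23 coregulators 14 were tested, 2 fell and 0 rose, with a median of 0.01. Klf15, a Krüppel-like factor of muscle metabolism, had levels of 1.39, 1.11 and 1.11 in si-uc.323, against 1.98, 2.04 and 2.13 in si-scramble (-0.85 ± 0.13, adjusted p = 0.0227). Mef2a, a muscle transcription factor, had a log2 fold change of -0.59 ± 0.12 (adjusted p = 0.0407).

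Retinoid handling genes, which make and bind the ligands of retinoid receptors, had 12 of 14 tested and 0 called, with a median of 0.02. The lowest adjusted p values were those of Lrat, which esterifies retinol (-0.69 ± 0.19, limma adjusted p = 0.0707), and Crabp2, a retinoic acid carrier (-0.41, 0.0756). The 9 nuclear factors of mitochondrial genes were all tested and 0 were called, with a median of -0.05, and Yy1 (0.48, 0.106) and Polrmt (-0.25, 0.215) had the lowest values. 

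Markers of other cell types gave few calls, and most of their sums overlapped between the groups. The summed endothelial level was 5.60 to 8.61 times the 75th percentile in si-uc.323 and 11.1 to 12.5 times in si-scramble, with 0 of 6 tested markers called. That sum is mostly Kdr, a VEGF receptor (-0.76, limma adjusted p = 0.0666), while 3 of the 6 markers had positive and 3 negative fold changes, with a median of 0.06. The mean log2 level of the 6 overlapped, at -2.82 to -2.70 in si-uc.323 and -2.91 to -2.63 in si-scramble. Fibroblast markers summed to 175 to 209 times in si-uc.323 and 172 to 188 times in si-scramble, with Postn the only one called, higher (0.69, limma adjusted p = 0.0311). Their mean log2 level was apart, at 2.40 to 2.47 in si-uc.323 and 2.16 to 2.27 in si-scramble. Among the 9 tested, 6 had positive and 3 negative fold changes. Leukocyte markers summed to 13.9 to 18.3 times in si-uc.323 and 16.6 to 16.7 times in si-scramble, with Cx3cr1 the only one called, lower (-1.60, 0.0447). Mural and smooth muscle markers summed to 8.85 to 10.3 times in si-uc.323 and 8.48 to 9.05 times in si-scramble, with 0 of 6 called. The part of these cells in the Rxrg result was not tested.

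Across 19 alternative settings the log2 fold change of Rxrg stayed between -1.56 and -1.28 and passed the threshold in 13. Ppara, Pparg, Ppargc1b and Esrra kept their sign in all 19, whereas the probes of Ppard, Rxra, Rxrb, Esrrg and Ppargc1a lay close to 0, and all but the brighter Ppard probe changed sign in at least 1 setting. Pparg and Ppargc1b passed only with array weights (0.32, limma adjusted p = 0.0399 and -0.46, 0.0184). Those weights were 2.37, 0.28 and 0.26 for si-uc.323 replicates 1, 2 and 3, so that setting leans mostly on replicate 1 of that group.

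**Figure D5:**
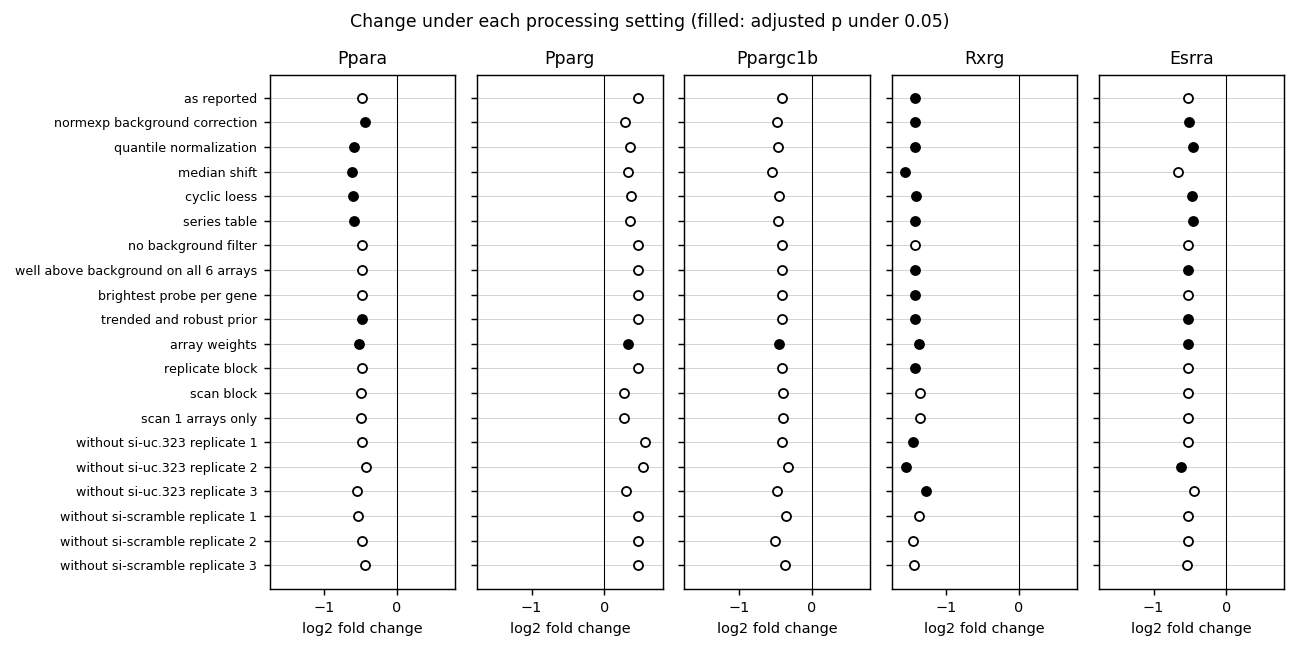
Log2 fold change, si-uc.323 minus si-scramble, of Ppara, Pparg, Ppargc1b, Rxrg and Esrra, the 5 members whose groups did not overlap, under each processing setting; filled points have an adjusted p under 0.05. Rxrg lies between -1.56 and -1.28 throughout and is filled in 13 of the 19 alternatives.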

How the data were processed

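Total RNA of 6 samples was hybridised to one-colour Agilent rat arrays (headers: design 028282, build rn4). The deposited scanner files give processed intensity per spot, background-subtracted by Feature Extraction 11.0.1.1, per the file headers. A deposited series table holds log2 values that track these; how they were scaled and centred is not stated, and they served as an alternative. Levels here were log2 intensity minus each array's 75th percentile, after control and outlier spots were left out and spots of a probe averaged. Probes were tested where 1 or both groups had them well above background on all 3 arrays. limma 3.58.1 (R 4.3.3) compared 3 si-uc.323 with 3 si-scramble samples, with Benjamini-Hochberg adjustment over 21994 probes at 0.05. Replicates are labelled as independent experiments. The number of arrays limits the precision. Accessions were named through RefSeq GRCr8, which left 12362 probes unnamed. Lists used each gene's brightest probe. Within each list, named genes were those past the threshold (at most 6 a direction), or the 2 lowest in adjusted p where none passed. Likeness named the 5 nearest genes. Members and lists were chosen with earlier results of these data known. Alternatives changed background, scaling, filter, variance model, blocks and samples. The fit was tested on simulated data with independent errors and the same spread in both groups. That simulation held no scan split and no unequal spread, so it does not cover these features of the arrays.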

Additional observations from a re-analysis of the deposited data

How the results depend on the processing

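The results reported above were 1 member probe, 1295 probes in all and 11 of 96 pathway genes past the threshold. Member probes numbered 3 with normexp, quantile, cyclic loess, the series table or a trended robust fit, 2 with the median shift or the filter on all 6 arrays, and 5 with array weights. All probes numbered 1828 with quantile, 1827 with the series table, 2162 with cyclic loess, 2151 with the trended robust fit and 6542 with array weights, and pathway genes numbered 17 with cyclic loess, 19 with the trended robust fit and 37 with array weights (33 lower, 4 higher). The replicate block gave 1, 804 and 6 in the same order. Same-numbered samples' deviations correlated at 0.20, 0.39 and -0.11, and differently numbered ones at -0.55 to 0.47. Deviations from a mean of 3 arrays are not independent, so these values cannot settle whether samples were paired. The numbers were not taken to pair the samples. The scan block gave 0, 9 and 0 by limma (3 member probes and 17 pathway genes at an unadjusted p under 0.05). No background filter gave 0, 0 and 0 (unadjusted 5, 5676 and 32). The scan 1 arrays alone held 1 si-uc.323 array, so only fold changes are given for them. Leaving out 1 replicate gave 0 to 2, 0 to 3247 and 0 to 20 (16 lower and 4 higher at the most, without si-uc.323 replicate 2): without si-uc.323 replicate 1, 2 or 3 all probes numbered 944, 3247 and 512, and without si-scramble replicate 1, 2 or 3 they numbered 0, 19 and 0 (unadjusted 4309, 4497 and 3804). Changes of sign were near 0. The dimmer Ppard probe gave -0.15 (normexp), -0.0184 (quantile), -0.0189 (series table), -0.0216 (array weights), -0.0291 (median shift), -0.0366 (cyclic loess), -0.0761 (scan block and scan 1 arrays only) and -0.0511 to 0.19 with 1 replicate left out (lowest without si-uc.323 replicate 3). Rxrb gave -0.0069 (quantile), -0.10 (median shift), -0.0071 (series table), and -0.0435 to 0.0879 with 1 replicate left out (below 0 without si-uc.323 replicate 1 or si-scramble replicate 2). Esrrg gave 0.13 (array weights), 0.0767 (scan block and scan 1 arrays only), and -0.15 to 0.0876 with 1 replicate left out (above 0 without si-uc.323 replicate 2 or si-scramble replicate 2). With 1 replicate left out, Rxra gave -0.0722 to 0.0429 (above 0 without si-uc.323 replicate 1 or si-scramble replicate 3), Ppargc1a -0.22 to 0.11 (above 0 without si-uc.323 replicate 2), and Rxra minus Rxrb -0.16 to 0.0515 (above 0 without si-uc.323 replicate 1 or si-scramble replicate 2). The cause of these shifts was not tested, beyond the fewer samples of some settings.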
